A study of Mus musculus with 2 samples.

Results

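Areg, Ereg, Epgn, Hbegf, Tgfa, Btc and Egf encode the 7 ligands of the epidermal growth factor receptor, and Egfr, Erbb2 and Erbb3 encode 3 receptors of the same family. These 10 genes were taken by symbol from the 32285 genes of each count matrix, and all 10 were found. The matrices held single cells of mouse pancreatic tumours, profiled with a 10x Genomics 3′ kit. KPC pancreatic cancer cells had been implanted in the pancreas of every animal, and the tumours were taken at day 21. The control group carried Porcnfl/fl (WT) without Cre and consisted of littermates. The other group was Csf1r-Cre;Porcnfl/fl (KO), in which Csf1r-Cre is meant to delete Porcn, the enzyme that lets Wnt proteins be secreted, in macrophages. Csf1r is also active in other myeloid cells, and the implanted cancer cells came from outside the mice and were not the target of the Cre. Each genotype gave 1 library from the pooled tumours of 5 mice.

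The ligands are made as membrane-bound precursors and are released by proteases of the ADAM family. Egfr binds all of them. Hbegf and Btc, and Ereg more weakly, also act through Erbb4. Erbb2 has no known ligand and acts as the partner of the other receptors, and Erbb3 binds neuregulins and signals mainly through Erbb2. In the pancreas the receptor and its ligands are known for their part in acinar-to-ductal change.

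With 1 library per genotype there was no replicate, so no test between genotypes was possible, and how much mice differ within a genotype cannot be seen. Levels are UMIs (unique molecular identifiers) per 1000000 UMIs of a cell class, called CPM. Each range in parentheses is the exact 95% interval from counting alone. Log2 ratios are knockout over control with 1 UMI added to each sum. A 3′ kit counts the end of a transcript, so levels were set beside each other between genes without a correction for length. Capture can differ between genes, and whether reads from introns were counted was not checked.

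The control library held 13766 barcodes and 173934025 UMIs, of which 11516 cells were kept, and the knockout library held 12251 barcodes and 137527647 UMIs, of which 10467 cells were kept. The libraries shared 46 barcode sequences. Porcn was sparse, at 8 control and 4 knockout UMIs in monocyte/macrophage-like cells, and where the deleted exons lie relative to the counted 3′ ends is not given in the sources used here, so the labels could not be checked by it. Epithelial/tumour-like cells numbered 9438 in control, 82.0% of kept cells, and 5754 in knockout, 55.0%. They carried the keratins Krt8, Krt18 and Krt19 at 1747 to 2099 CPM, while the epithelial adhesion gene Epcam was at 6.77 CPM in control and 20.1 in knockout, and Cldn4 and Cldn7 were below 7 CPM. Of these cells' 10 clusters, those called Grem1 Ifit3 and Dkk2 below had no epithelial marker among their 50 leading genes. The values that moved without them are given beside the results. The Onecut2, Cxcl10, Lgals4, Ube2c and Magi1 clusters had such a marker among their 50 leading genes but not among the first 10. Mitochondrial UMIs were a lower share of the knockout library in each class compared, 1.76% against 2.29% in tumour cells and 1.72% against 2.74% in macrophages, and their part in the results was not tested.

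Areg, Ereg, Epgn and Btc lie together on chromosome 5, within 376 kb on GRCm38 (91027464 to 91402994). Egfr and Erbb2 are on chromosome 11, at 16752203 to 16918158 and 98412470 to 98437716. Erbb3 is on chromosome 10, Tgfa on chromosome 6 and Egf on chromosome 3. Promoter windows from RefSeq (GRCm38.p6), 250 bases before to 50 after each start, matched 7 of the 10 genes. Areg and Btc are shown because these neighbours on chromosome 5 had different ratios between the libraries in the tumour cells, described further on. Their levels across tumour clusters went together (r = 0.73). The sequences are the 120 bases before the start, 5′ to 3′ on the gene's strand, with the CRE motif TGACGTCA and the TATAAA box in capitals. Both motifs were searched on both strands and do not overlap here.
Areg (chr5:91139479-91139598, plus strand): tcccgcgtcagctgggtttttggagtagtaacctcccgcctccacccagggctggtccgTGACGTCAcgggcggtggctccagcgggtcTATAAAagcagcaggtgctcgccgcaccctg
Btc (chr5:91402995-91403114, minus strand): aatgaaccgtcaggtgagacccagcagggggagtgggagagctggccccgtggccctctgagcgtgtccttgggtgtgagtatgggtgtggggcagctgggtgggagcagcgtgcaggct
The full CRE was present in 1.79% of all 32851 windows and, among the members matched, in that of Areg alone. TATAAA was present in 13.6% of all windows, and in those of Areg and Epgn. The AP-1 motif TGANTCA was in 7.81% of all windows and in no member's. A match is a description of letters in the window.

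Tumour cells carried most ligand transcripts. They held 99.1% of Areg UMIs among kept control cells and 95.2% among kept knockout cells, 96.7% and 94.4% of Hbegf UMIs, and 97.7% and 96.0% of Btc UMIs. For the sparse Egf the shares were 88.7% of 248 UMIs and 62.3% of 175 UMIs (54.7 to 69.5). Tumour cells were also most of the cells, so these shares reflect their number as well as their level. Egfr was more widely spread, with 75.4% of its UMIs from tumour cells and 12.4% from fibroblasts in control, against 60.8% and 34.0% in knockout.

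**Figure D1:**
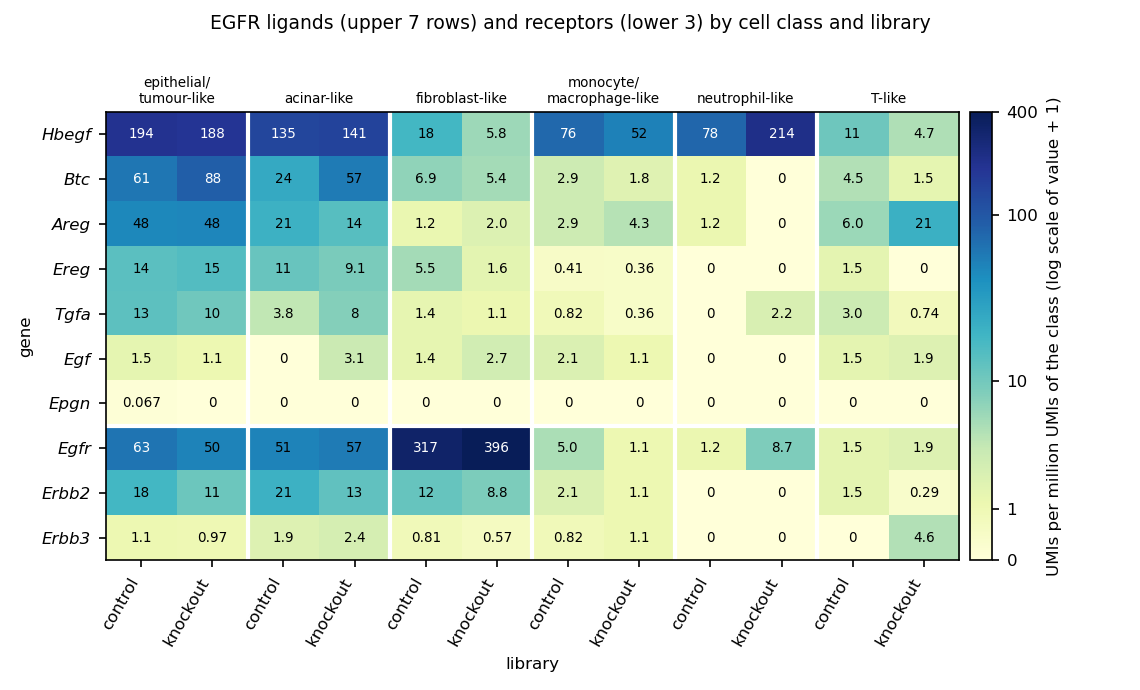
UMIs per 1000000 UMIs for the 10 genes (rows) in 6 cell classes (column pairs, control then knockout); colour follows the logarithm of the value plus 1 and each cell prints its value. Hbegf leads the ligands in tumour-like cells (194 and 188) and is highest of all in knockout neutrophil-like cells (214), and Egfr is highest in fibroblast-like cells (317 and 396).

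Hbegf, a ligand that also binds heparan sulphate (chromosome 18, 36504927 to 36515805), was the most abundant member in tumour cells. It stood at 194 CPM in control (29058 UMIs) and 188 in knockout (18561 UMIs), a ratio of 0.972 (0.955 to 0.991; log2 -0.04). It made up 58.6% of the summed ligand UMIs in control and 53.7% in knockout. After each cell was thinned to 5000 UMIs, it was seen in 45.5% of control and 43.7% of knockout tumour cells. The size of this difference is small beside the range between tumour clusters. Without the Grem1 Ifit3 and Dkk2 clusters the log2 ratio of Hbegf was 0.04. Without those clusters the log2 ratio of Btc was 0.41, that of Areg -0.10, that of Egfr -0.17, that of Erbb2 -0.66 and that of the receptor sum -0.27, against the values for all tumour cells given below.

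Btc, betacellulin, came next. It stood at 60.7 CPM in control and 87.8 in knockout, a ratio of 1.45 (1.41 to 1.49; log2 0.53). The share of tumour cells in which it was seen after thinning was 21.1% (20.2 to 22.0) in control and 28.9% (27.7 to 30.1) in knockout. Its part of the ligand sum was 18.4% in control and 25% in knockout. The library with more Btc per cell was therefore also the library in which more cells carried it.

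Areg, amphiregulin, stood at 47.6 CPM in control and 48.3 in knockout, and the interval of the ratio held 1 (1.01; 0.978 to 1.05). Ereg, epiregulin, stood at 13.6 and 15 CPM (ratio 1.11; 1.03 to 1.18). Tgfa was the other way, at 13.2 and 10.3 CPM (ratio 0.782; 0.724 to 0.843). Egf itself was sparse, at 1.47 and 1.11 CPM (ratio 0.754; 0.594 to 0.953), so the gene that gives the family its name was among its lowest members here. Epgn, epigen, had 10 UMIs in the control tumour cells and 0 in the knockout ones, where 3 UMIs would be 0.0304 CPM. The order of levels was Hbegf, Btc, Areg, Ereg, Tgfa, Egf and Epgn in each library. Ereg and Tgfa were neighbours whose intervals overlapped in control (13 to 14.2 and 12.6 to 13.8) but not in knockout.

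The receptors were lower in knockout tumour cells. Egfr stood at 63.3 CPM in control and 50.5 in knockout (ratio 0.797; 0.770 to 0.825; log2 -0.33). Erbb2 stood at 18.5 and 10.8 CPM (ratio 0.581; 0.541 to 0.623; log2 -0.78). Erbb2 was seen in 9.72% of control and 5.23% of knockout tumour cells after thinning, and Egfr in 24.3% and 19.8%. Erbb3 was sparse in the class at 1.08 and 0.973 CPM (162 and 96 UMIs), and its ratio interval held 1 (0.693 to 1.17). The Pkhd1 and Lgals4 clusters, described below, held 18 and 79 of the control UMIs and 53 and 14 of the knockout ones. The sum of the 3 receptors was 82.9 CPM in control and 62.2 in knockout (log2 -0.41), and the sum of the 7 ligands was 330 and 351 (log2 0.09).

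None of the 9 members with at least 20 UMIs in tumour cells passed a log2 ratio of 1 in either direction. Over all 17407 genes tested there, 4.87% passed it upward and 2.73% passed it downward. The members' median log2 ratio was -0.14 and that of all genes tested was -0.06. In neighbouring parts of the pathway, 0 of 6 ligand-shedding genes passed it (median -0.33). Among them Adam17, the main sheddase of several of these ligands, was at 44.6 and 39.5 CPM, and Adam10 was at 278 and 240 CPM. Of the 5 neuregulin and Erbb4 genes 0 passed it (median -0.74). None of 18 adaptor and signalling genes (median -0.12) and none of 18 negative feedback genes (median -0.10) did either. Among 12 ERK response genes, Etv1, a transcription factor, was past it at 1.99 and 0.902 CPM (log2 -1.13). Errfi1, a feedback inhibitor that binds the receptor's kinase domain, was at 153 and 118 CPM (log2 -0.37).

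The tumour cells formed 10 clusters, each called here by a gene among its 10 leading ones. The Ube2c cluster held cycling cells. The Muc5ac cluster had leading genes of gastric mucous cells, and the Lgals4 cluster had those of intestinal epithelium. The Cxcl10 cluster led with interferon-induced genes, and the Grem1 Ifit3 cluster led with some of these beside Grem1, Inhba and Areg itself. The Onecut2, Ffar4 and Dkk2 clusters made up most of the others, the Magi1 cluster was shallow with a median of 3685 UMIs, and the Pkhd1 cluster held only 41 control and 51 knockout cells. Areg was among the genes used for clustering, the only member that was, so its contrast between clusters is a description. Comparisons between libraries use the 9 clusters that held 100 or more cells on each side.

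**Figure D2:**
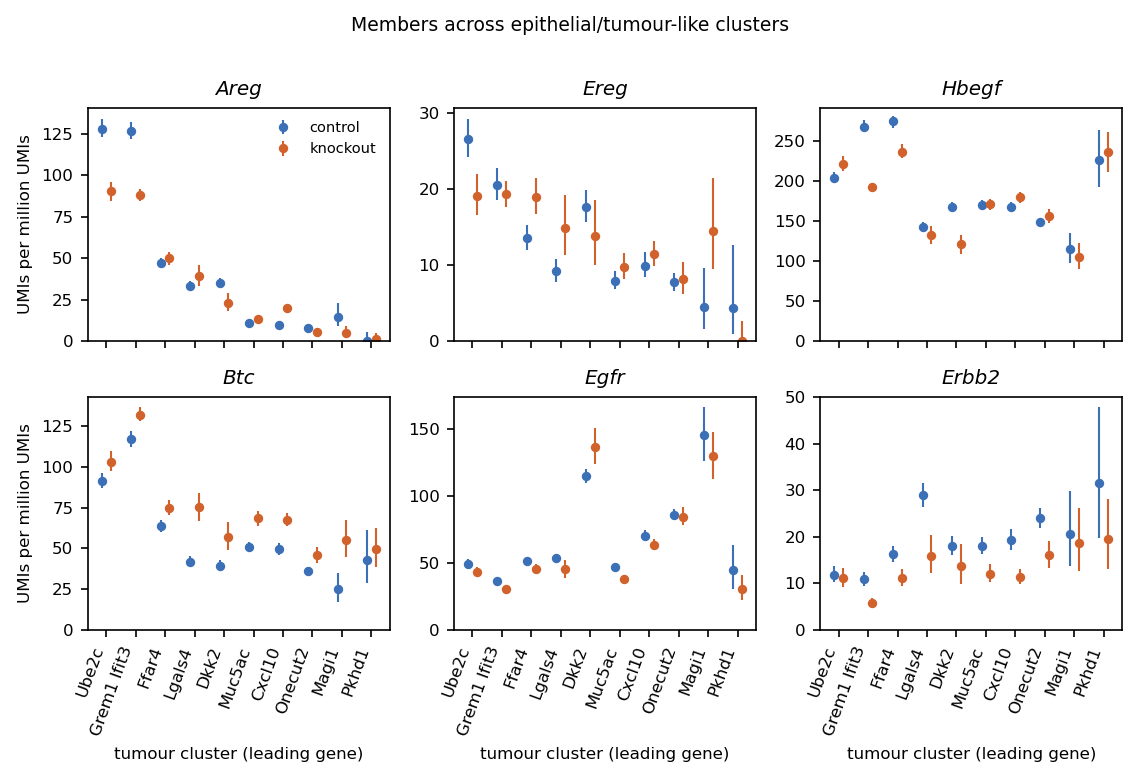
UMIs per 1000000 UMIs of 6 members in 10 epithelial/tumour-like clusters (x axis, ordered alike in all panels), control in blue and knockout in orange, with exact 95% counting intervals as bars. Areg falls from 128 in the control Ube2c cluster to 7.66 in the Onecut2 cluster, whereas Btc is higher in knockout in each of the 9 clusters compared.

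Areg was the member that varied most between tumour clusters of the ligands above 5 CPM in the class. In control it was at 128 CPM in the Ube2c cluster and 127 in the Grem1 Ifit3 cluster, at 47.2 in the Ffar4 cluster, 34.9 in the Dkk2 cluster and 33.3 in the Lgals4 cluster. It was at 14.7 in the Magi1 cluster, 10.7 in the Muc5ac cluster, 9.92 in the Cxcl10 cluster and 7.66 in the Onecut2 cluster, a 16.7-fold range. The knockout range was 19.4-fold, and with all 10 members left out of the clustering genes the ranges were 22.6-fold and 15.8-fold. Hbegf ranged only 2.39-fold in control and 2.26-fold in knockout, so every tumour cluster carried it at more than 100 CPM.

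Areg in the whole class hid a shift between its clusters. In the clusters where it was highest it was lower in knockout: 127 and 88.1 CPM in the Grem1 Ifit3 cluster (ratio 0.696; 0.657 to 0.738) and 128 and 90.3 in the Ube2c cluster (ratio 0.705; 0.653 to 0.761). In the Cxcl10 cluster it was higher, at 9.92 and 19.6 CPM (ratio 1.97; 1.62 to 2.41). In all, 5 clusters had lower Areg in knockout with intervals below 1, and 2 had higher Areg with intervals above 1. The Grem1 Ifit3 cluster was 11% of control tumour cells (10.4 to 11.6) and 24.8% of knockout tumour cells (23.7 to 25.9). With clusters given the same weights in both libraries, the log2 ratio of Areg was -0.31 in place of 0.02, and that of the ligand sum was -0.07 in place of 0.09. A list of 14 dissociation stress genes was added after the members' values had been seen. It summed to 2729 CPM in control and 2948 in knockout tumour cells, and to 3462 and 4023 in the Grem1 Ifit3 cluster. In each other cluster compared the sum was lower in knockout, as in the Ube2c cluster (2488 and 2173 CPM). The part of these stress genes in the results was not tested.

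Btc was higher in knockout in 9 of 9 clusters, and all 9 intervals lay above 1. Its log2 ratios ran from 0.17 in the Grem1 Ifit3 and Ube2c clusters, where Btc was already highest (117 and 91.7 CPM in control), to 1.12 in the shallow Magi1 cluster (25 and 55.2 CPM). In the Lgals4 cluster it was at 42.0 and 75.2 CPM (ratio 1.79; 1.56 to 2.05). With clusters weighted alike its log2 ratio was 0.31, and that of Tgfa was -0.41. The clusters share a library and its free RNA, so 9 of 9 is not 9 independent observations.

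Erbb2 was lower in knockout in 9 of 9 clusters, with 6 intervals below 1. Its log2 ratios ran from -0.90 in the Grem1 Ifit3 cluster (10.9 and 5.80 CPM) to -0.08 in the Ube2c cluster (11.9 and 11.2 CPM). Among the 9 clusters, control Erbb2 was highest in the Lgals4 cluster, at 28.9 CPM, where it was at 15.9 in knockout. Within clusters weighted alike the log2 ratio of Erbb2 was -0.61 and that of Egfr was -0.11. Mien1, on the opposite strand, overlaps the annotated Erbb2 gene and had 28567 UMIs in kept cells. Whether the authors' counting used strand is not given in the sources used here, so reads from the shared stretch could not be assigned with certainty. The same holds for Ereg, overlapped by the antisense gene Gm19610 (1195 UMIs), and Egfr, overlapped by Egfros (555 UMIs).

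Egfr had its own order among clusters. It was highest in the Magi1 cluster, at 146 and 130 CPM, and in the Dkk2 cluster, at 115 and 137. It was lowest in the Grem1 Ifit3 cluster, at 36.3 and 30.8 CPM, where Areg and Btc were high. The Dkk2 cluster was the only one of the 9 compared with higher Egfr in knockout (ratio 1.19; 1.07 to 1.32). The Egfr interval lay below 1 in 6 clusters, and it held 1 in the Onecut2 cluster (86.1 and 84.8 CPM) and the Magi1 cluster.

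**Figure D3:**
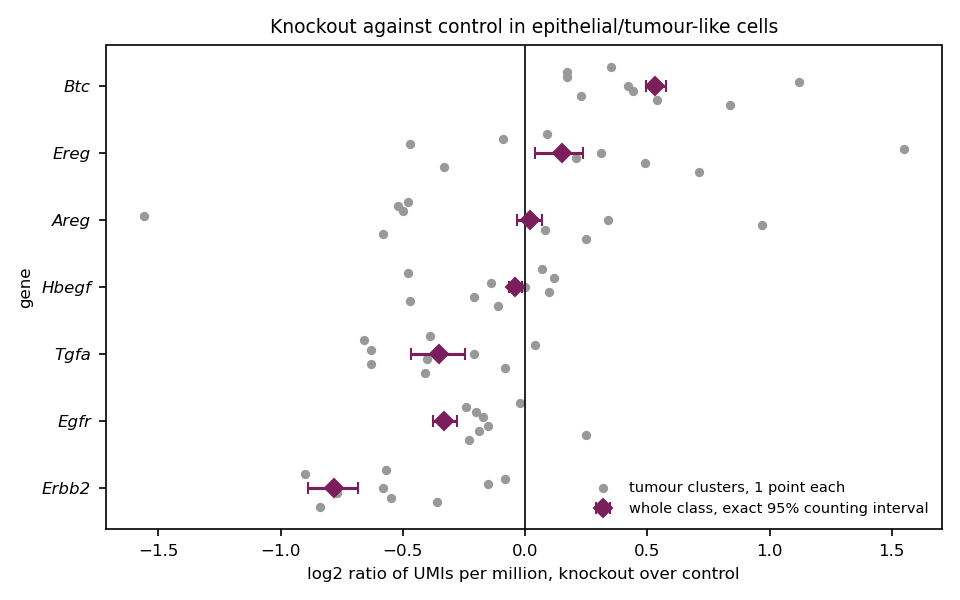
Log2 ratio of UMIs per 1000000, knockout over control, for 7 members; diamonds are the whole epithelial/tumour-like class with exact 95% counting intervals, and grey points are its 9 compared clusters. All grey points lie right of 0 for Btc (0.17 to 1.12) and left of 0 for Erbb2 (-0.90 to -0.08), and those of Areg lie on both sides (-1.56 to 0.97).

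Across 19 points, which are tumour clusters in each library with at least 50 cells, Pearson correlations of log2 (CPM plus 10) described which members shared an order. Areg went with Ereg (r = 0.82) and with Btc (r = 0.73). Btc ran against Erbb2 (r = -0.85), and Hbegf ran against Egfr (r = -0.73). The points share 2 libraries and differ in depth, so these values are a description. At the level of cells thinned to 5000 UMIs, Ereg was seen in 14.5% of control tumour cells with Areg (12.1 to 17.2) and in 4.04% of those without (3.61 to 4.51). In knockout the shares were 12.7% and 4.81%.

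At least 1 of the 7 ligands was seen in 62.3% of control and 64.7% of knockout tumour cells after thinning. A ligand and Egfr were seen in the same cell in 15.2% and 13.2%. Egfr was seen in 24.3% of control cells with a ligand (23.2 to 25.5) and in 24.2% of those without (22.7 to 25.7). The knockout shares were 20.4% (19.0 to 21.8) and 18.7% (17.0 to 20.6). The intervals overlapped in each library. By single ligand, the knockout shares were 16.2% with Areg and 20.2% without, but 21.1% with Hbegf and 18.8% without. In control they were 21.7% and 24.5% for Areg and 24.8% and 23.8% for Hbegf. These differences were not tested.

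The small Pkhd1 cluster stood apart in its receptors. Its leading genes included Epcam, Tff2 and Cldn3, and it held Erbb4, the neuregulin receptor outside the member list, at 823 CPM in control and 291 in knockout. Erbb3 was at 25.9 CPM in control (15.3 to 40.9) and 37.0 in knockout (27.7 to 48.3), against at most 4.63 in the 9 other clusters. Tgfa was at 50.3 and 31.4 CPM, the highest of any epithelial/tumour-like cluster in each library. Areg was at 0 UMIs in control, which allows up to 5.30 CPM, and at 1.39 CPM in knockout. With 41 and 51 cells, no difference between libraries is drawn from this cluster. Whether its cells came from the implanted cancer cells or from the host was not tested.

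Fibroblast-like cells, 404 in control and 715 in knockout, carried collagens and Pdgfra and had the highest Egfr of any class. Egfr stood at 317 CPM in control (1560 UMIs) and 396 in knockout (2788 UMIs), a ratio of 1.25 (1.17 to 1.33; log2 0.32), the opposite direction to the tumour cells. It was seen in 72% of control and 71.3% of knockout fibroblasts thinned to 5000 UMIs, so the share of cells did not differ beyond counting error (66.8 to 76.8 and 67.4 to 74.9). An unnamed cluster of 270 control and 55 knockout cells, with mesothelial and fibroblast markers among its leading genes, was next with 260 and 176 CPM. Tumour cells (63.3 and 50.5) and acinar-like cells (50.7 and 56.9) were well below both. The control acinar-like value rests on 27 UMIs in 44 cells, so the order of these 2 classes is not read.

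Free RNA from tumour cells was gauged with the keratin and claudin genes Krt8, Krt18, Krt19, Cldn4 and Cldn7 and with Epcam. Their summed level in fibroblasts was 7.34% of the tumour level in control and 3.03% in knockout. Hbegf in fibroblasts was at 18.5 CPM in control and 5.83 in knockout (log2 -1.65), where free RNA would give 14.2 and 5.70. Ereg was at 5.49 and 1.56 CPM (27 and 11 UMIs; log2 -1.74), which was 5.51 and 3.43 times the free RNA level. Erbb2, Btc, Areg, Tgfa and Egf were each below 12 CPM in fibroblasts, with ratio intervals that held 1.

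Of 7 members tested in fibroblasts, 2 were past a log2 ratio of -1, Hbegf and Ereg, and 0 were past 1. Hbegf was not past -1 with doublets kept (-0.16) or as a mean over cells (-0.83). Over 12667 genes the shares were 2.92% downward and 4.54% upward. The members' median log2 ratio was -0.36 and that of all genes 0.07. Among 11 ERK response genes tested, 5 were past -1: Ier3 (132 and 43.6 CPM), Spp1 (440 and 177), Ccnd1 (58.4 and 27.9), Fosl1 (7.32 and 1.99) and Epha2 (3.86 and 1.14). The control fibroblast level of Ccnd1 was 8.34% of the tumour level, that of Epha2 11.7%, that of Spp1 12% and that of Fosl1 16%, beside the 7.34% of the free RNA genes. Ier3 was at 64.5% of the tumour level. The part of free RNA in these differences was not tested. In the other lists 1 of 18 adaptor genes, 1 of 18 feedback genes and 1 of 2 neuregulin genes tested were past 1, and 1 of 6 shedding genes was past -1. Gab2, an adaptor, was at 203 and 442 CPM (log2 1.12), Nrg2 at 0.813 and 3.69, Spry4, a feedback inhibitor, at 4.47 and 9.38, and Rhbdf2, a partner of Adam17, at 3.66 and 1.28.

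Among leukocytes, Hbegf stood above the level that free RNA would give in macrophages and neutrophils. In the 507 control and 552 knockout monocyte/macrophage-like cells, which carried Csf1r at 238 and 270 CPM, Hbegf was at 76.3 CPM (185 UMIs) and 51.8 CPM (145 UMIs), a ratio of 0.679 (0.542 to 0.848; log2 -0.56). Free RNA would give 12.8 and 5.94 CPM. The ligand sum was 85.4 and 59.6 CPM (log2 -0.52), of which Hbegf was 89.4% and 86.8%. The stress genes summed to 4734 and 6304 CPM. Hbegf was the 1 member with enough UMIs to be tested in this class and it did not pass a log2 ratio of 1 in either direction, beside 2.78% of 10217 genes upward and 3.70% downward. In the other lists, 0 of 4 shedding genes, 0 of 18 adaptor genes and 0 of 12 feedback genes were past it. Nrg4, a neuregulin, was at 9.90 and 4.28 CPM (log2 -1.15), and of 10 ERK response genes Fosl1 was past 1 (2.89 and 7.86 CPM) and Spp1 past -1 (3741 and 1629 CPM).

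The macrophage clusters differed in Hbegf more than the libraries did. It was at 105 CPM in control and 132 in knockout in the F13a1 cluster, and at 106 and 89.0 in the Mmp12 cluster, and both ratio intervals held 1 (0.767 to 2.06 and 0.628 to 1.12). It was at 19.2 and 6.12 CPM in the C1qa cluster (ratio 0.319; 0.0994 to 0.899), where free RNA would give 7.59 and 4.65. In the Ms4a4c cluster it was at 25.2 CPM in control (4 UMIs) and 37.5 in knockout (25 UMIs). The F13a1 and Mmp12 clusters were 33.5% and 28.4% of control macrophages and 23.0% and 15.6% of knockout ones. Areg in the Mmp12 cluster had 2 UMIs in control and 12 in knockout (1.61 and 13.5 CPM). The 12 were all the Areg UMIs of knockout macrophages and lay in 4 cells, 9 of them in 1 cell.

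Neutrophil-like cells, 293 in control and 185 in knockout, had Hbegf at 77.5 CPM (64 UMIs in 25 cells) and 214 CPM (99 UMIs in 29 cells). The ratio was 2.76 (2 to 3.85; log2 1.46), the opposite direction to macrophages. Nearly all of it was in the Acod1 cluster, which also led with Cxcl2 and Il1b. There Hbegf was at 248 and 326 CPM, and the ratio interval held 1 (1.32; 0.945 to 1.85; log2 0.39). That cluster was 47.4% of control neutrophils (41.6 to 53.3) and 76.8% of knockout neutrophils (70 to 82.6). The log2 ratio was thus 1.46 over the class and 0.39 within the cluster that carried the gene. The dissociation stress genes summed to 8992 and 13494 CPM in the class and to 14343 and 16110 in the Acod1 cluster, and their part in the result was not tested.

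Hbegf was the 1 member tested in neutrophils and was past a log2 ratio of 1, where 7.42% of 5785 genes were past it upward and 7.29% downward. Of 6 ERK response genes tested 2 were past 1, Ier3 and Spp1, and of 10 feedback genes 1 was, the phosphatase Dusp5, while 0 of 4 shedding genes and 0 of 15 adaptor genes were. Ier3 and Dusp5 were at 1188 and 2410 CPM and at 134 and 275 CPM. Spp1 was at 294 and 756 CPM. Adam17 was at 143 and 284 CPM (log2 0.99), just inside.

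**Figure D4:**
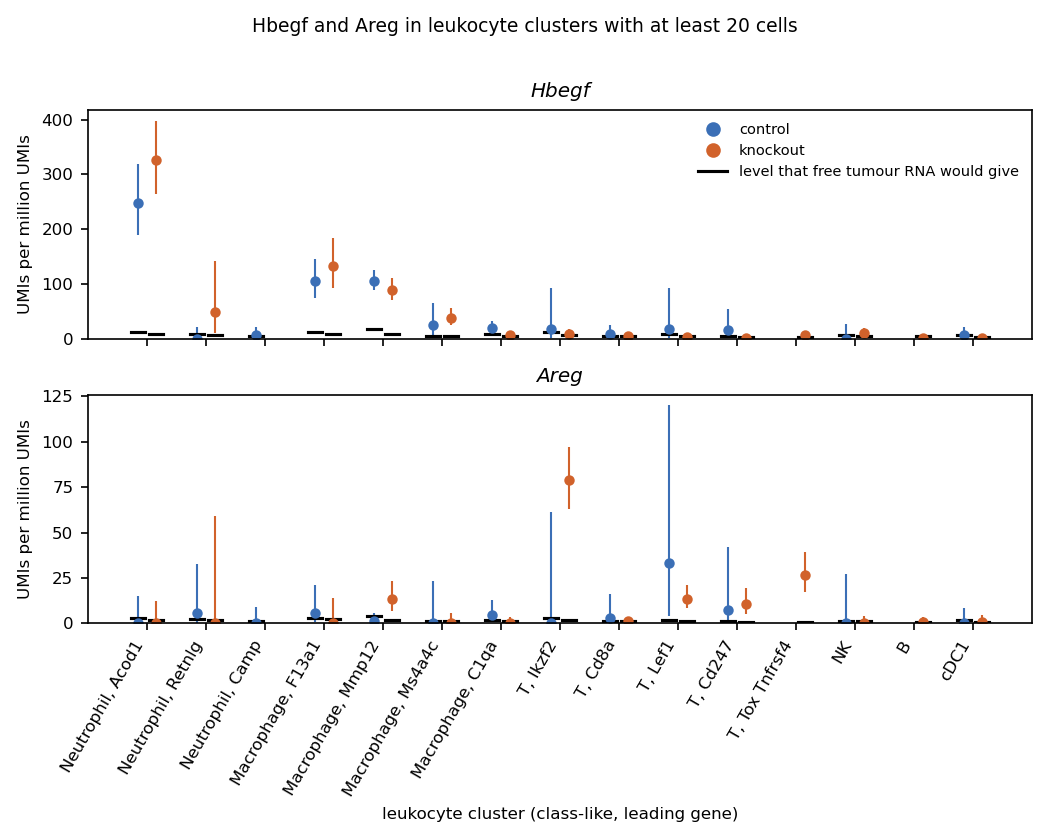
Hbegf (upper) and Areg (lower) in UMIs per 1000000 UMIs in leukocyte clusters with at least 20 cells in the library, control in blue and knockout in orange, with exact 95% counting intervals; black bars mark the level that free tumour RNA would give. Hbegf stands above the black bars in the Acod1 neutrophils (248 and 326) and in the F13a1 and Mmp12 macrophages, and Areg stands above them in the knockout Ikzf2 T cells (78.8).

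T-like cells held Areg above the level that free tumour RNA would give. They numbered 189 in control and 1619 in knockout. Areg had 4 UMIs in 3 control cells (6.04 CPM) and 145 UMIs in 49 knockout cells (21.4 CPM), a ratio of 3.55 (1.36 to 13.2), and free RNA would give 1.53 and 1.16 CPM. The stress genes summed to 2817 and 3680 CPM in these cells. A single knockout cell held 39 of these UMIs, and without it the log2 ratio was 1.07 in place of 1.51. In the knockout library the Ikzf2 cluster, which led with Tnfrsf4, Ctla4 and Icos, held 87 of the UMIs in 22 of 314 cells (78.8 CPM; 43.7 without that single cell). The Ikzf2 cluster was 12.7% of control and 19.4% of knockout T cells, the Lef1 cluster 11.1% and 29.5%, and the Cd8a cluster, with 1 and 3 Areg UMIs, 52.4% and 33.6%. Foxp3, the transcription factor of regulatory T cells, was then used to divide the cells, a choice made after the values had been seen. Knockout T cells with a Foxp3 UMI were at 78.6 CPM (62.7 to 97.3; 23 of 211 cells with Areg) and those without at 10.7 (8.19 to 13.7; 26 of 1408 cells). The cell with 39 UMIs was among the former, and without it they were at 42.3 CPM (30.9 to 56.6). In control only 7 T cells had a Foxp3 UMI and they had 0 Areg UMIs, which allows up to 119 CPM. Whether the 2 libraries differ in these cells was therefore not detectable at this depth.

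Erbb3 had 31 UMIs in 28 knockout T cells (4.58 CPM), where free RNA would give 0.0233 CPM. The control T cells had 0 UMIs, where 3 would be 4.53 CPM. The ratio interval held 1, with a lower end of 0.774, so no difference was detectable. These 31 UMIs were 19.6% of all Erbb3 UMIs of the knockout library. In knockout NK-like cells Tgfa had 9 UMIs in 5 cells (10.7 CPM), 5 of them in 1 cell. Hbegf in T cells, at 10.6 and 4.73 CPM, was at 1.70 and 1.05 times the free RNA level.

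Of 3 members tested in T cells, Areg and Erbb3 were past a log2 ratio of 1 and Hbegf was past -1. Over 11257 genes 4.36% were past it upward and 5.80% downward. Areg is the member for which the interval of the ratio did not hold 1. In the other lists 1 of 15 feedback genes was past 1, 2 of 9 ERK response genes were past -1, and 0 of 5 shedding genes and 0 of 17 adaptor genes were past either. Socs3, the feedback gene, was at 10.6 and 27.6 CPM, and Ccnd1 and Spp1 were past -1 at 3.88% and 16.5% of the tumour level in control, where the free RNA genes were at 3.22%.

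Acinar-like cells numbered 44 in control and 342 in knockout. They had Hbegf at 135 and 141 CPM and Btc at 24.4 CPM (13 UMIs) and 56.7 CPM (255 UMIs). The keratin and claudin genes there summed to 82.6% and 91.1% of the tumour level. Those genes could therefore not serve as a gauge of free RNA in acinar-like cells, and the source of the ligand transcripts there was not tested. Whether the cells of this class were acinar cells or tumour cells with acinar transcripts was not tested either. Plasma-like cells had Hbegf at 108 CPM in control and 21.4 in knockout. Without their 1 cluster that also led with S100a9 and Lyz2, the values were 1.58 and 1.99 CPM. Pericyte/smooth muscle-like cells, 107 in control and 33 in knockout, had Hbegf at 62.9 CPM (63 UMIs) and 91.4 CPM (25 UMIs), where free RNA would give 56.8 and 21.2.

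For each member the genes nearest in pattern were taken over 51 points, clusters of each library with at least 50 cells, by Pearson correlation of log2 (CPM plus 10). Areg was nearest to Prl2c2 (r = 0.81), with r = 0.94 within the 19 tumour points. Btc was nearest to Krt18, Srd5a1 and Plek2 (each r = 0.95), but within tumour points these were 0.46, 0.55 and 0.33, and Erbb2 to Cgnl1, Cyb561 and Fat1 (each r = 0.95). Egfr was nearest to Dpysl3 (r = 0.96), Sdc2 and Uggt2 (each r = 0.95). Hbegf was nearest to Wsb2 (r = 0.86), but within tumour points that r was 0.30. Ereg was close to Msln and Apol9a (each r = 0.89), Tgfa to Clmn (r = 0.92) and Erbb3 to Pdzk1ip1 (r = 0.87). Egf (423 UMIs over both libraries) and Epgn (11 UMIs) were too sparse for these values to be read.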

How the data were processed

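The authors deposited raw UMI counts per gene and barcode. Per the file headers the matrices came from Cell Ranger 8.0.0, whereas the submitters' processing notes name Cell Ranger 3.1.3 and mm10. Gene positions come from GENCODE M21 on GRCm38. Barcodes needed 500 genes and no more than 15% mitochondrial UMIs, and Scrublet (expected rate 0.08, scanpy 1.11.5) removed 148 control (1.27%) and 341 knockout (3.16%) doublets. Leiden clustering (2000 variable genes, 30 components, 15 neighbours, resolution 1, seed 0) was run on all cells and again on leukocytes. Clusters were named from 21 marker lists and stayed unnamed with under 3 detected markers, or where the 10 leading genes favoured another class. UMIs were summed per class and library, and libraries were compared in classes with 100 or more cells on each side. Genes with at least 20 UMIs entered counts past a log2 ratio of 1 or -1. Named genes were all members, in each class the 3 pathway genes with the largest ratio past 1 or -1, and for each member the 3 genes nearest in pattern; further pathway genes were chosen after their values were seen, and 1 gene near in pattern is not reported here. The ratio and interval code was tested on simulated data. Members and lists were chosen with earlier results of these data known.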

Additional observations from a re-analysis of the deposited data

Results flagged for a closer look

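Egfr differed in opposite directions between cell classes. Its log2 ratio of knockout over control was 0.32 in fibroblast-like cells, -0.33 in epithelial/tumour-like cells and -1.91 in monocyte/macrophage-like cells, and the ratio intervals did not hold 1. The last rests on 12 and 3 UMIs at the level that free tumour RNA would give. With 1 library per genotype the difference between classes was not tested.

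Hbegf had log2 ratios of 1.46 in neutrophil-like cells, -0.04 in epithelial/tumour-like cells, -1.65 in fibroblast-like cells and -0.56 in monocyte/macrophage-like cells. The fibroblast levels were 1.30 and 1.02 times what free tumour RNA would give, and the ratio there was -0.16 when doublets were kept. The difference between classes was not tested.

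Ereg was at 0.15 in epithelial/tumour-like cells and -1.74 in fibroblast-like cells, the latter from 27 and 11 UMIs. This difference was not tested either.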

How the results depend on the processing

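Of 42 values of the 4 main results under other settings, 32 moved by less than their counting interval, 9 moved by more and 1 changed direction. The tumour ligand sum (log2 0.09) was 0.12 as a mean over cells, 0.11 without mitochondrial and ribosomal genes in the library size, and -0.07 with tumour clusters weighted alike. The tumour receptor sum (-0.41) was -0.37 with cells named from their own markers and -0.21 with clusters weighted alike. Without the Grem1 Ifit3 and Dkk2 clusters, an alternative chosen after seeing the data, it was -0.27. The macrophage ligand sum (-0.52) was -0.87 with the strict cell filter and -0.26 with cells named from their own markers. Fibroblast Egfr (0.32) was 0.48 with the strict filter, 0.41 at resolution 0.5, 0.22 as a mean over cells and 0.44 with cells named from their own markers. Tumour Hbegf (-0.04) was 0.04 without the Grem1 Ifit3 and Dkk2 clusters. Of 208 such values for single members, 187 stayed within their interval and 21 moved. The cause was not tested. Under the strict filter Scrublet called 0 control doublets and so did not work there. Adding unnamed tumour clusters was not run, since there was none. No paired analysis was possible because each genotype had 1 library and the labels carry no replicate numbers; no library could be left out either. Depth limits Epgn and Egf everywhere, Erbb3 in most clusters, and every member in control T cells.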

Other observations

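Nrg1, the neuregulin whose receptors are Erbb3 and Erbb4, was spread over more classes. Tumour cells held 62.9% of its UMIs in control and 35.7% in knockout, and monocyte/macrophage-like cells 12.2% and 19.9%. Among the named classes compared, its level was highest in monocyte/macrophage-like cells, at 71.7 CPM in control and 61.4 in knockout, and in neutrophil-like cells, at 50.9 and 45.5 CPM. In knockout the cells of unnamed clusters were above these, at 73.9 CPM. Fibroblast-like cells had 35.4 and 33.0 CPM. In epithelial/tumour-like cells it was at 5.99 and 3.12 CPM, and it was lower in knockout in 9 of 9 tumour clusters compared, with 4 intervals below 1. In the Dkk2 cluster it was at 18.3 and 5.76 CPM (ratio 0.314; 0.184 to 0.506), and in the Ube2c cluster at 8.52 and 2.04 (ratio 0.239; 0.145 to 0.377).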
